A study of Homo sapiens with 15 samples.

Results

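The 8 genes described here are NPW, FJX1, PODXL2, MTSS1L, DDN, CAMKV, HPDL and PPP1R3A, out of 16109 genes listed in any of the study's 3 expression tables. DDN, CAMKV, HPDL, FJX1, NPW, MTSS1L and PODXL2 were selected on their CPM values when tetracycline was given to P493-6 cells. They were picked from among the steepest falls relative to control, and they lie outside the larger pathways named for these data. PPP1R3A was added to them. All 8 are listed in both P493-6 tables and 5 in the PC3 table, which does not list CAMKV, HPDL or PPP1R3A. The label "genes falling most with MYC shut-off" holds for the first 7 on the scale of log2(CPM + 1), where they took places 2 to 7 and 9 among 13703 genes, after MYC in place 1 and with CD3EAP in place 8. By the ratio of mean CPM they took lower places, from 10 (HPDL) to 23 (PODXL2) among 9939 genes with a control mean of at least 5 CPM. The label does not hold for PPP1R3A, which stood at place 759 on log2(CPM + 1).

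P493-6 is a human B cell line, labelled as a Burkitt lymphoma line with overexpressed c-MYC, in which tetracycline shuts off an introduced MYC gene that every P493-6 group carries. PC3 is a prostate cancer line that expresses its own MYC. MYCi975 is a small molecule made to inhibit MYC. The P493-6 groups were DMSO control, 6 µM MYCi975 in DMSO and 0.1 µg/ml tetracycline in water, and the PC3 groups were DMSO control and 8 µM MYCi975 in DMSO. Treatment lasted 24 h. There were 5 groups of 3 libraries, 15 libraries in total, made by strand-specific exon capture from 50 ng of total RNA. Tetracycline was dissolved in water while its control group received DMSO, so the vehicle and the tetracycline effect cannot be told apart. Each line is a single cell line, and the labels do not say whether replicate libraries are separate cultures. The p-values therefore measure only how far these libraries spread, and that spread may be technical.

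Library depth was 8162582 to 15926008 reads, and values are CPM, read counts scaled to 1000000 per library, so that each value is relative to the library's other genes. In these bulk samples, fewer cells of a type and less RNA per cell cannot be told apart. MYC stood at 4692, 4701 and 4791 CPM in P493-6 controls and at 152, 145 and 149.8 CPM with tetracycline. With MYCi975 it stood at 5138, 5084 and 5132 CPM. In PC3, MYC stood at 301, 300 and 309 CPM in controls, far below the P493-6 controls, and at 378, 359 and 386 CPM with MYCi975. These are levels of MYC RNA, and the protein and its activity were not measured in these libraries. All 8 B cell markers were listed in P493-6 and all 8 epithelial markers in PC3. Their summed level was 3958 to 4191 CPM in P493-6 controls, 4494 to 4814 CPM with MYCi975 and 11673 to 12083 CPM with tetracycline, and in PC3 it was 1848 to 1878 CPM in controls and 1820 to 1950.3 CPM with MYCi975. Of 4 T cell and monocyte markers 2 were listed in P493-6, CD3E and LYZ, and CD3D and CD14 were not. Their summed level was 8.52 to 10.03 CPM in controls and 62.96 to 68.97 CPM with tetracycline. Most of this was LYZ, which went from 4.96 to 58.6 CPM, while CD3E went from 4.51 to 7.80 CPM. Of 8 epithelial markers 3 were listed in P493-6, with a summed level of 12.1 to 13.7 CPM in controls and 5.15 to 5.64 CPM with tetracycline. EPCAM went from 11.2 to 1.84 CPM and KRT19 from 0.675 to 0.579 CPM, while KRT7 went from 0.963 to 2.90 CPM. The part of these shifts in the results below was not tested.

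MYC is a transcription factor that pairs with MAX and binds the E-box CACGTG and close variants such as CACGCG, most often in promoters that are rich in CpG. It is best known for raising genes of ribosome production, nucleotide synthesis and mitochondrial metabolism, and for lowering others. The 8 genes belong to no common pathway. NPW encodes a secreted peptide, FJX1 a Golgi kinase-like protein and PODXL2 a surface sialomucin. MTSS1L and DDN encode proteins that work with the actin cytoskeleton, CAMKV a kinase-like protein without kinase activity, HPDL a mitochondrial enzyme and PPP1R3A a scaffold for glycogen enzymes.

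The promoters of 5 of the genes are shown first, because 4 of them hold an E-box or its variant and the fifth, PPP1R3A, differs from the others in base composition. RefSeq promoter windows on GRCh38.p14, from 250 bases before the annotated start to 50 bases after it, were found for 7 of the 8 genes, with the entry MTSS2 matched to the older symbol MTSS1L. For DDN none was matched. Each sequence is printed 5′ to 3′ on the strand of the gene, up to the annotated start or to the first exon base of the gene in GENCODE 29, whichever comes first. Capitals mark CACGTG, or CACGCG on either strand (CGCGTG when read on the other strand). The regions are chr1:45326645-45326894 on the plus strand for HPDL, chr11:35618210-35618418 on the plus strand for FJX1, chr16:70686067-70686303 on the minus strand for MTSS1L, chr3:127628935-127629180 on the plus strand for PODXL2 and chr7:113919066-113919259 on the minus strand for PPP1R3A.
FJX1: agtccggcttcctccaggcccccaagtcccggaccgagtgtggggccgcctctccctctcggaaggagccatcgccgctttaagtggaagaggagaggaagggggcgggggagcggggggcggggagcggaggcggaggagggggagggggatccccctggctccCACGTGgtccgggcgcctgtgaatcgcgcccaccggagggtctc
MTSS1L: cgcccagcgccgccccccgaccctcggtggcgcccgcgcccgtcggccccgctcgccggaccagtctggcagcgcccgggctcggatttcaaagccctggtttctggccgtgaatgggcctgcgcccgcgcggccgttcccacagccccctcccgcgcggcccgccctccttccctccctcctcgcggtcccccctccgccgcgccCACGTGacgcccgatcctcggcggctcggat
PODXL2: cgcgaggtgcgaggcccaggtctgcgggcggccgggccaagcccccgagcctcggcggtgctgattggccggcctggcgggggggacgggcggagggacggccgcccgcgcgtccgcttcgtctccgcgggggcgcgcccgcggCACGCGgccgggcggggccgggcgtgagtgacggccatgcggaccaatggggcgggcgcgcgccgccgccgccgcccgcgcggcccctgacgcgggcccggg
HPDL: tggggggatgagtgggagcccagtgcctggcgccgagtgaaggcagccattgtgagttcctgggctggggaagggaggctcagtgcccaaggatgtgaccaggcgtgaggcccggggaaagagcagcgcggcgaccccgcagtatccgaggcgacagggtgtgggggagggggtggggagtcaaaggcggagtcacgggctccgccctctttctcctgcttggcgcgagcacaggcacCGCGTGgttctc
PPP1R3A: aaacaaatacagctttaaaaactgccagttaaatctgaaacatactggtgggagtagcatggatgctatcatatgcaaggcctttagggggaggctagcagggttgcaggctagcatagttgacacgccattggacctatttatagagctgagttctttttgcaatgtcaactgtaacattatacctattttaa

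CACGTG begins 85 bases before the start of FJX1 and 44 bases before that of MTSS1L. CACGCG begins 106 bases before the start of PODXL2, and its reverse complement CGCGTG begins 12 bases before that of HPDL. Neither was found in the windows of CAMKV, NPW and PPP1R3A, which says only that these letters are not in those 300 bases. Of all 35116 promoter windows of this length, 7.26% hold CACGTG, 11.4% hold CACGCG on either strand and 17.4% hold at least 1 of them. TATAAA, read on the strand of the gene, was in none of the 7 windows and in 7.33% of all windows. The GC content was 84.0% for PODXL2, 80.0% for MTSS1L, 72.3% for FJX1, 71.0% for CAMKV, 68.7% for NPW and 67.3% for HPDL, where the middle 50% of all windows lies between 47% and 68%. PPP1R3A had 41.3% GC and 2 CpG in its window, against 57 CpG for PODXL2 and 51 for MTSS1L. The shares of windows with each motif are over windows of any GC content. They were not taken among windows of GC content like that of these genes, so nothing is read from the number of matches. These matches are descriptions of sequence, not sites of binding.

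In P493-6 controls the genes were expressed at moderate levels, and the order per length of exon was not their order in CPM. PODXL2 was highest at 45.8 ± 0.744 CPM per kilobase of exon (SD, n = 3), followed by NPW at 34.3 ± 4.33 and HPDL at 30.6 ± 0.725, whose libraries overlap. MTSS1L at 18.8 ± 0.570, DDN at 17.7 ± 0.406, CAMKV at 15.9 ± 0.777 and FJX1 at 15.6 ± 1.59 CPM per kilobase followed, and only CAMKV and FJX1 among these neighbours lay within each other's spread. PPP1R3A was far below the others at 3.29 ± 0.103 CPM per kilobase. Capture probes can differ in yield between genes, so this order is approximate.

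**Figure D1:**
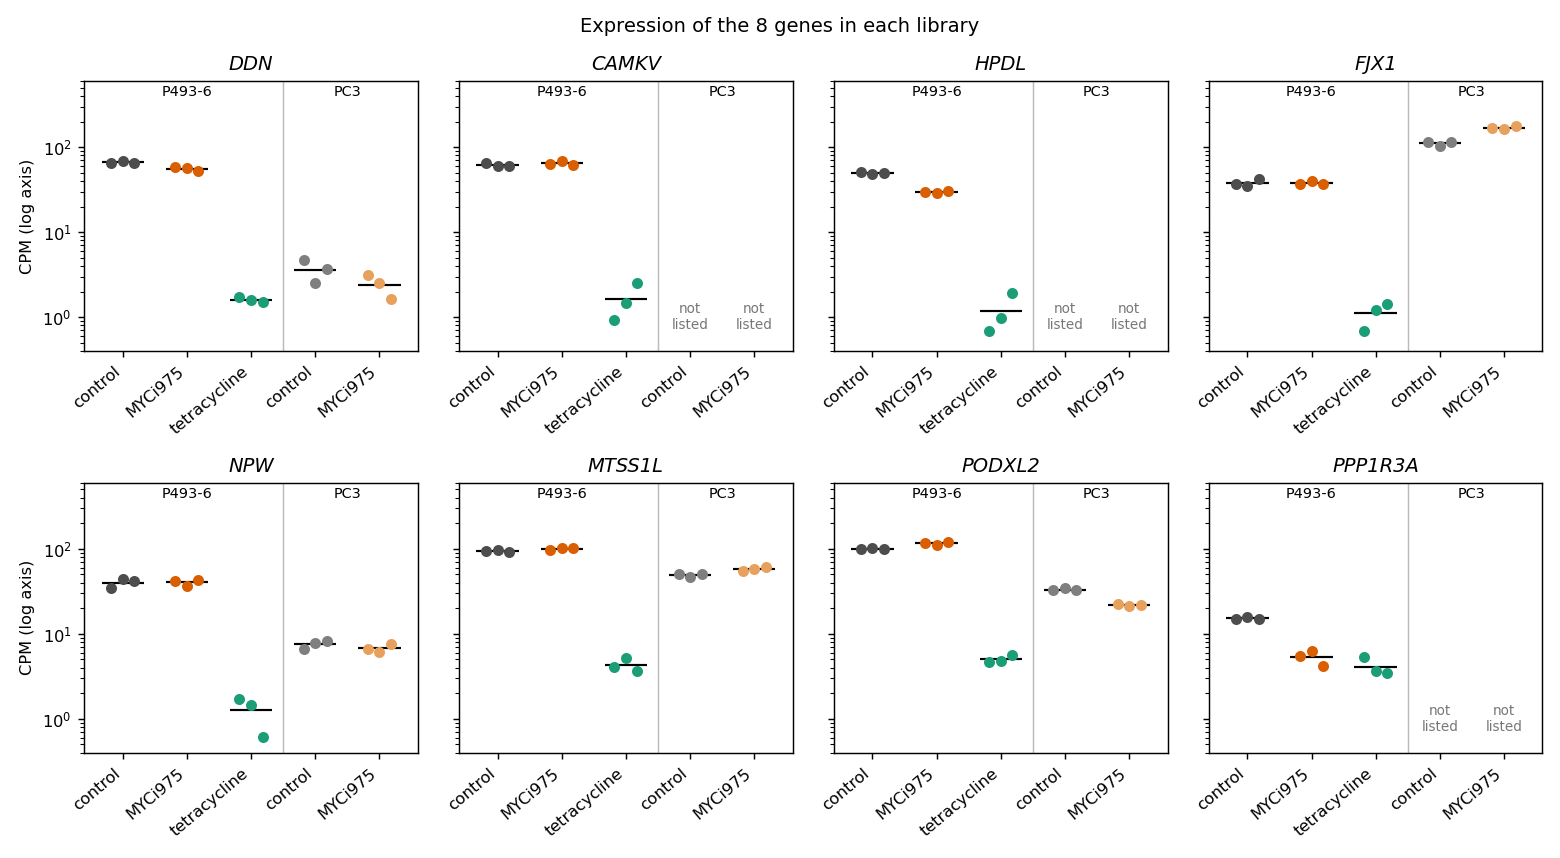
CPM of each gene in each library on a log axis, for the 3 groups of P493-6 and the 2 groups of PC3. Points are libraries and bars are group means. The first 7 genes drop from between 34.3 and 102 CPM in P493-6 controls to between 0.606 and 5.66 CPM with tetracycline and lie between 28.8 and 119 CPM with MYCi975, whereas PPP1R3A is below its controls with both.

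The tetracycline comparison asked what happens to these genes when the introduced MYC is off. It chose the genes, so its values are a description and carry no test. NPW is the precursor of neuropeptide W, the ligand of the receptors NPBWR1 and NPBWR2, and is best known from the brain. Its levels were 34.3, 43.6 and 42.4 CPM in the controls and 1.72, 1.47 and 0.606 CPM with tetracycline. All 3 treated libraries were far below the controls, and the third, on 6 reads, was the lowest. Its mean was 31.7-fold lower, the same ratio as for MYC itself.

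FJX1 is the human relative of fly four-jointed, a Golgi kinase that phosphorylates cadherins of the Fat and Dachsous type. It stood at 37.1, 35.1 and 42.7 CPM in controls and at 0.689, 1.23 and 1.41 CPM with tetracycline, a ratio of 34.5. PODXL2, endoglycan, is a sialomucin of the CD34 family that can carry ligands of selectins. It stood at 100.1, 102 and 98.5 CPM in controls and at 4.71, 4.78 and 5.66 CPM with tetracycline, a ratio of 19.8, the least steep of the first 7. Both genes were low in all 3 treated libraries.

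MTSS1L, now named MTSS2, has an I-BAR domain that bends membrane toward actin-rich protrusions. It stood at 95.2, 96.4 and 91.0 CPM in controls and at 4.13, 5.15 and 3.64 CPM with tetracycline, a ratio of 21.9. DDN, dendrin, is a proline-rich protein of neuronal dendrites and of podocytes in the kidney. It stood at 66.0, 68.0 and 65.0 CPM in controls and at 1.72, 1.59 and 1.52 CPM with tetracycline, a ratio of 41.2 and the largest fall of the 8 on log2(CPM + 1), −4.69. The gene lies at chr12:48995149-48999309 on the minus strand of hg38, and the antisense gene DDN-AS1 on the plus strand overlaps it. DDN-AS1, listed under the clone name RP11-386G11.5, went from 17.5 to 1.83 CPM. The library kit keeps strand, but the strand setting of the counting is not given in the sources used here, so reads of DDN and its antisense partner may not be separated.

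CAMKV resembles calmodulin-dependent kinases, lacks activity of its own and is known from vesicles and synapses of neurons. It stood at 65.3, 60.0 and 60.2 CPM in controls and at 0.918, 1.47 and 2.53 CPM with tetracycline, a ratio of 37.7. HPDL, a mitochondrial enzyme related to 4-hydroxyphenylpyruvate dioxygenase, acts in a route to the head group of coenzyme Q. It stood at 50.9, 48.6 and 50.0 CPM in controls and at 0.689, 0.980 and 1.92 CPM with tetracycline, a ratio of 41.7, the highest of the 8. For both genes the treated libraries differ among themselves by more than the controls do in relative terms, since CAMKV rests on 8, 12 and 25 reads and HPDL on 6, 8 and 19 reads there.

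PPP1R3A is the subunit that brings protein phosphatase 1 to glycogen, best known from skeletal muscle. It stood at 15.1, 15.97 and 15.1 CPM in controls and at 5.28, 3.68 and 3.44 CPM with tetracycline, a ratio of 3.73. Its fall was the smallest of the 8, and its remaining level was above that of FJX1, HPDL, NPW, DDN and CAMKV in every tetracycline library. With tetracycline the control and treated libraries did not overlap for any of the 8 genes. The same held, with the treated libraries lower, for 42.1% of all genes, and since this comparison chose the genes nothing is read from their count.

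By the ratio of mean CPM, 16 other genes with a control mean of at least 5 CPM fell more steeply than PODXL2, MYC among them. The 5 steepest were RP11-132A1.4, SH2D5, GLB1L2, CTXN1 and KISS1R, with control means between 5.67 and 17.97 CPM. A fall of at least 15-fold was seen in 39 of 9939 genes at that level, 0.392%. Among the 5759 genes with a control mean of at least 30 CPM, HPDL, DDN, CAMKV and FJX1 held places 1 to 4, MYC place 5, NPW place 6, MTSS1L place 8 and PODXL2 place 10. Just outside the choice on log2(CPM + 1) was MEX3A, at 38.9 CPM in controls and at 1.55 CPM with tetracycline, next to PODXL2, whose log2 change was −4.07. By ratio the next gene after PODXL2 was B4GALT2, at 43.6 CPM in controls and 2.27 CPM with tetracycline.

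**Figure D2:**
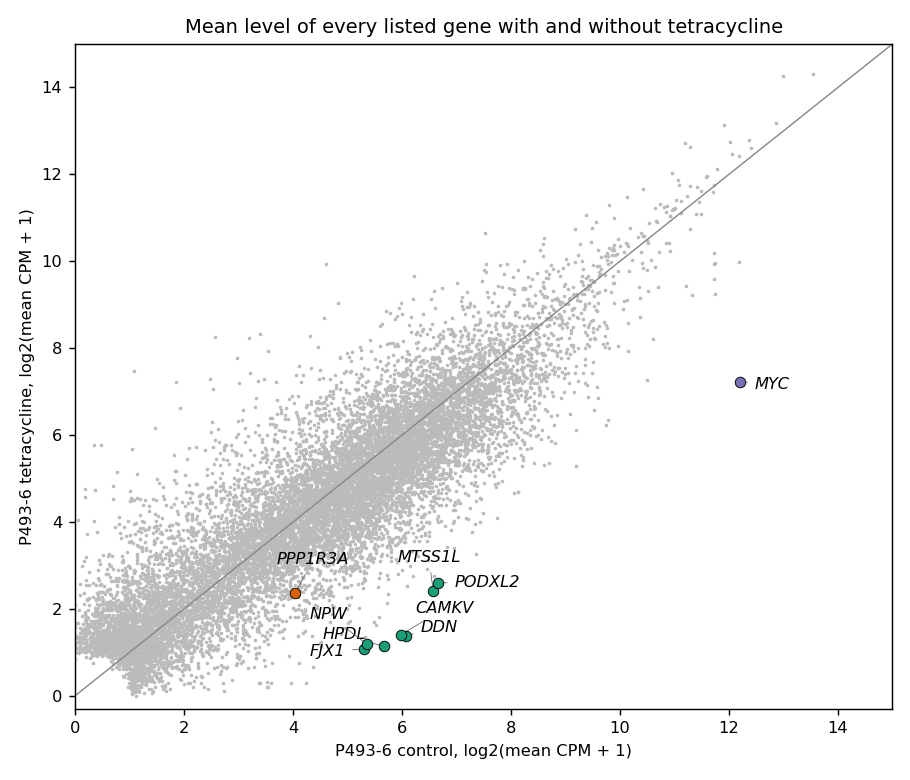
Level of each listed gene as log2(mean CPM + 1) in P493-6 controls (x axis) and with tetracycline (y axis); the line marks equal levels, grey points are all 13703 genes. The first 7 genes (green) and MYC (purple) lie far below the line, while PPP1R3A (orange), at 15.4 CPM in controls and 4.13 CPM with tetracycline, lies among other genes.

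The comparison of MYCi975 with control in P493-6 shows if the compound moved the genes that fell with tetracycline. It shares its 3 control libraries with the tetracycline comparison, so it is not independent of the choice, and PPP1R3A was known for its fall here and is only described. HPDL and DDN fell and PODXL2 rose, and the other 4 genes did not pass the test. Thus 3 of the 7 tested genes were called, 1 higher and 2 lower, where 28.6% of 12998 genes were called, 10.6% higher and 18% lower (limma on log2(CPM + 1), two-sided, Benjamini-Hochberg adjusted p below 0.05 over all genes). Scaling by TMM, a normalization on the bulk of genes, turned the 1375 higher and 2338 lower calls over all genes into 1819 and 1690.

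HPDL stood at 30.02, 28.8 and 30.6 CPM with MYCi975, below every control library, and its log2 level changed by −0.72 (SE 0.070, adjusted p = 3.62e-11, lower in 3 of 3 libraries). It kept 59.8% of its control level with MYCi975, against 2.40% with tetracycline. DDN stood at 58.4, 57.6 and 51.8 CPM, again below all controls, with a change of −0.24 (SE 0.061, adjusted p = 0.00172). It kept 84.4% of control, against 2.43% with tetracycline. PODXL2 stood at 118, 112 and 119 CPM, above all controls, a rise of 0.21 (SE 0.050, adjusted p = 0.000928) in a gene that tetracycline took to 5.04% of control. Of all 12998 genes, 24.8% lay wholly below control with MYCi975 in P493-6 and 15.2% wholly above. These shares are also the background for the separations of MTSS1L and PPP1R3A below.

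MTSS1L stood at 97.8, 101 and 103 CPM with MYCi975, all above its controls, and its change of 0.10 did not pass the test (95% confidence interval −0.01 to 0.20, adjusted p = 0.157). It passed with TMM scaling (0.14, adjusted p = 0.0277) and with edgeR on the recovered reads (adjusted p = 0.0258), and not with DESeq2 (adjusted p = 0.0954). CAMKV stood at 64.1, 68.3 and 61.7 CPM, within reach of its controls, with a change of 0.06 (interval −0.06 to 0.18, adjusted p = 0.464). NPW stood at 42.2, 36.6 and 42.7 CPM with a change of 0.02 (interval −0.14 to 0.18, adjusted p = 0.89). FJX1 stood at 36.4, 40.3 and 37.2 CPM with a change of −0.01 (interval −0.16 to 0.14, adjusted p = 0.948). For CAMKV, NPW and FJX1 the libraries of both groups overlap, and the intervals leave room for small changes in either direction.

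PPP1R3A stood at 5.56, 6.22 and 4.19 CPM with MYCi975, below all controls, and kept 34.5% of its control level. Its log2(CPM + 1) change was −1.39, place 2 among 12998 genes, and by ratio it held place 1 among the 9939 genes with a control mean of at least 5 CPM. The libraries with MYCi975 and with tetracycline overlap for this gene, with means of 5.32 and 4.13 CPM. For the other 7 genes they do not overlap, and the mean with MYCi975 was between 23.0-fold (PODXL2) and 39.5-fold (CAMKV) above that with tetracycline. These 7 genes were chosen for their fall in the same tetracycline libraries. The low tetracycline side of the gap therefore follows from the choice, so the gap was not tested and nothing is read from its size. The levels with MYCi975 are set against control above. The dose of MYCi975 was 6 µM and only the 24 h time was measured, so other doses are not described.

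In PC3 the compound was tested in a line with MYC of its own, on libraries that took no part in the choice. FJX1 and MTSS1L rose and PODXL2 and DDN fell, so 4 of the 5 listed genes were called, 2 in each direction, beside 59.2% of 13751 genes, 29% higher and 30.1% lower. FJX1, the most abundant of them in PC3, stood at 116, 103 and 114 CPM in controls and at 168, 162 and 179.6 CPM with MYCi975. The groups do not overlap, and the rise was 0.61 (SE 0.042, adjusted p = 1.19e-21). MTSS1L stood at 50.4, 46.9 and 51.3 CPM in controls and at 55.6, 58.2 and 61.2 CPM with MYCi975, a rise of 0.23 (SE 0.055, adjusted p = 0.000157). PODXL2 stood at 32.7, 34.3 and 32.8 CPM in controls and at 22.6, 21.3 and 22.0 CPM with MYCi975, a fall of 0.58 (log2 change −0.58, SE 0.071, adjusted p = 1.22e-11). For these 3 genes all treated libraries lie on 1 side of all controls. Over all genes the treated libraries lay wholly above control for 30.2% and wholly below for 31.7%.

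DDN was low in PC3, at 4.71, 2.53 and 3.64 CPM in the controls and 3.09, 2.55 and 1.63 CPM with MYCi975. The groups overlap, and the change of −0.43 (SE 0.167, adjusted p = 0.0224) rested on 2 libraries. Without PC3 control replicate 1 it was −0.27 (adjusted p = 0.224), and without PC3 MYCi975 replicate 3 it was −0.25 (adjusted p = 0.232). DESeq2 on the recovered reads did not call it either (adjusted p = 0.0926). NPW stood at 6.66, 7.72 and 8.35 CPM in controls and at 6.56, 6.09 and 7.63 CPM with MYCi975, and its change of −0.14 did not pass the test (interval −0.39 to 0.10, adjusted p = 0.324).

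**Figure D3:**
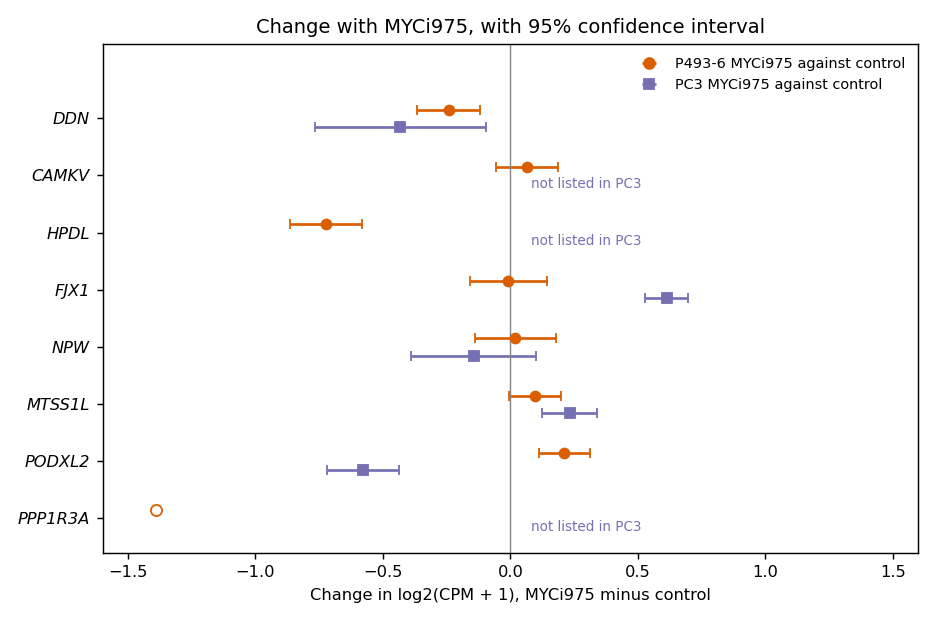
Change in log2(CPM + 1) with MYCi975 against control for each gene in P493-6 (6 µM, circles) and PC3 (8 µM, squares), n = 3 libraries per group; bars are 95% confidence intervals from limma, and the open circle is PPP1R3A, which is described without a test. FJX1 lies at −0.01 in P493-6 and 0.61 in PC3, and PODXL2 at 0.21 and −0.58.

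Whether the change with MYCi975 differed between the lines was tested as an interaction over 12 libraries and 11240 genes, with the caution that the dose was 6 µM in P493-6 and 8 µM in PC3. It differed for FJX1 and PODXL2, 2 of 5 genes, beside 36.3% of all genes. The change of FJX1 was higher in PC3 by 0.62 (SE 0.088, adjusted p = 6.74e-07). That of PODXL2 was lower in PC3, with a difference of −0.79 (SE 0.079, adjusted p = 1.29e-10), and its direction was opposite in the lines. The differences for MTSS1L (0.13, adjusted p = 0.161), NPW (−0.16, adjusted p = 0.408) and DDN (−0.19, adjusted p = 0.554) did not pass the test, with intervals of −0.02 to 0.29, −0.46 to 0.13 and −0.66 to 0.28. Line and dose cannot be told apart here. The P493-6 controls of this test also took part in the choice of the genes, so the test is not independent of that choice.

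The families and pathways of the 8 genes were followed through 93 other genes in 8 lists. With tetracycline 20 of the 57 listed relatives rose and 29 fell, 86% in all, where 78.1% of 13703 genes were called, 36.2% higher and 41.9% lower. Their median change was −0.26, beside −0.05 over all genes. With MYCi975 in P493-6, 9 of 56 rose and 5 fell, 25% beside 28.6% of all genes, with a median of −0.045 beside −0.04 over all genes. In PC3, 20 of 63 rose and 18 fell, 60.3% beside 59.2% of all genes, with a median of −0.01 beside 0.00 over all genes. These shares of all genes are also the background for the counts of each list below.

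For NPW, its receptors NPBWR1 and NPBWR2 and the related ligand NPB were not listed in either line. PAM, the enzyme that amidates the C-terminus of many neuropeptides, was the only listed relative in P493-6. It fell from 22.6 ± 2.48 to 12.7 ± 0.514 CPM with tetracycline (−0.78, SE 0.106, adjusted p = 1.88e-08) and rose to 38.6 ± 0.431 CPM with MYCi975 (0.75, SE 0.082, adjusted p = 6.50e-10). The 3 libraries of each treatment lie wholly on opposite sides of the controls they share. For FJX1, the large cadherins of its fly counterpart's system, FAT1 to FAT4, DCHS1 and DCHS2, were not listed in P493-6. FAM20B, a related kinase that acts on the sugar linkers of proteoglycans, fell from 68.8 ± 4.78 to 29.95 ± 0.849 CPM with tetracycline (−1.17, adjusted p = 3.75e-18). In PC3, where FJX1 rose, 4 genes of the list were found, of which FAT4 rose and FAM20C and FAT1 fell. FAT4 went from 9.79 ± 0.176 to 15.9 ± 2.03 CPM (0.64, adjusted p = 2.39e-08). FAT1 went from 224 ± 6.35 to 145 ± 3.85 CPM (−0.63, adjusted p = 9.87e-29).

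Of the CD34 family and the selectins, 2 genes of the list were measured with tetracycline and both rose while PODXL2 fell. SELPLG, the ligand of P-selectin, went from 4.49 ± 1.00 to 7.95 ± 0.532 CPM (0.72, adjusted p = 7.90e-05). PODXL, podocalyxin, the closest relative of PODXL2 in the list, went from 6.83 ± 1.47 to 8.78 ± 0.547 CPM (0.34, adjusted p = 0.0347). The groups of PODXL overlap, and its call was lost without any 1 of 4 libraries, for example without P493-6 control replicate 2 (0.20, adjusted p = 0.246). In PC3 with MYCi975, PODXL rose from 195 ± 5.13 to 574 ± 6.56 CPM (1.56, adjusted p = 3.66e-64), while PODXL2 fell there.

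Among the I-BAR genes, 2 of 3 listed rose with tetracycline and none fell. MTSS1, the namesake of MTSS1L, went the other way from it, from 16.3 ± 0.924 to 192 ± 17.6 CPM (3.48, SE 0.069, adjusted p = 2.73e-34). MTSS1L was the higher of the pair in every control library and the lower in every tetracycline library, in CPM not corrected for length. With MYCi975 in P493-6, MTSS1 fell to 11.8 ± 0.441 CPM (−0.43, adjusted p = 0.00122). BAIAP2L1, which shares the domain, rose from 2.42 ± 0.173 to 5.85 ± 0.329 CPM with tetracycline (1.00, adjusted p = 1.10e-06).

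Of the known partners of dendrin, 5 were listed with tetracycline, of which 3 rose and 1 fell. SYNPO, synaptopodin, an actin-bundling protein of dendritic spines and podocytes, rose from 21.0 ± 0.789 to 258 ± 5.84 CPM (3.56, SE 0.058, adjusted p = 3.42e-37). WWC1, the scaffold KIBRA, fell from 23.6 ± 1.47 to 4.11 ± 0.870 CPM (−2.28, adjusted p = 8.71e-19), and MAGI1, a junction scaffold, rose from 9.67 ± 1.53 to 16.5 ± 2.98 CPM (0.71, adjusted p = 4.76e-06). SYNPO also rose with MYCi975, to 32.6 ± 1.55 CPM in P493-6 (0.61, adjusted p = 1.07e-07). The podocyte markers NPHS1, WT1 and PLA2R1 were not listed in P493-6, where 2 of 5 podocyte markers were, SYNPO and PODXL, with a summed level of 26.8 to 28.4 CPM in controls and 260.2 to 272 CPM with tetracycline. None of 9 neuron markers was listed in P493-6, so the levels of DDN and CAMKV there were measured without these markers.

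Of the calmodulin-dependent kinases and calmodulins, 9 were listed with tetracycline, of which 3 rose and 4 fell. The fall of CALM2 was lost with TMM scaling, which left 3 falls. Both CaM kinase kinases, which switch on other CaM kinases, fell. CAMKK1 went from 19.4 ± 1.22 to 1.59 ± 0.195 CPM (−2.98, SE 0.147, adjusted p = 4.58e-21), and CAMKK2 from 89.6 ± 4.43 to 14.8 ± 0.220 CPM (−2.52, SE 0.075, adjusted p = 1.90e-28). CAMK2D rose from 86.2 ± 3.49 to 157 ± 4.43 CPM (0.86, adjusted p = 1.97e-18). With MYCi975 in P493-6, CAMKK1 (−0.21, adjusted p = 0.102) and CAMKK2 (−0.04, adjusted p = 0.609) did not pass the test.

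HPDL belongs with tyrosine breakdown and coenzyme Q synthesis, where 15 genes were listed with tetracycline, 9 fell and 3 rose, with a median of −0.60. Of all genes, 41.9% fell and 36.2% rose with tetracycline. PDSS1, which builds the isoprenoid tail of coenzyme Q, fell from 29.4 ± 2.25 to 5.33 ± 0.841 CPM (−2.27, adjusted p = 4.27e-20). COQ8A, listed under its older symbol ADCK3, an atypical kinase of coenzyme Q assembly, fell from 84.6 ± 1.43 to 17.2 ± 1.40 CPM (−2.23, adjusted p = 1.37e-26). FAH, the last enzyme of tyrosine breakdown, fell from 38.3 ± 1.47 to 10.3 ± 0.267 CPM (−1.80, adjusted p = 3.60e-20). With MYCi975 in P493-6, where HPDL fell, none of the 15 was called by limma (3 at an unadjusted p below 0.05) or by DESeq2 (1 at that level), and edgeR called COQ5 as higher. Limma called COQ5 as higher with TMM scaling or without P493-6 MYCi975 replicate 2, and COQ2 as lower without P493-6 control replicate 2. HPD, TAT and HGD, the liver enzymes of tyrosine breakdown, were not listed.

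For PPP1R3A, 21 glycogen genes were listed with tetracycline, of which 7 rose and 13 fell, with a median of −0.43. The shares over all genes were 36.2% higher and 41.9% lower. PYGL, a glycogen phosphorylase, fell from 64.4 ± 4.90 to 21.8 ± 1.32 CPM (−1.52, adjusted p = 1.26e-20). GAA, the lysosomal enzyme that clears glycogen, fell from 69.9 ± 2.67 to 24.95 ± 2.72 CPM (−1.45, adjusted p = 3.21e-20), and PGM1, which converts glucose phosphates, from 50.7 ± 1.85 to 19.9 ± 1.17 CPM (−1.31, adjusted p = 5.32e-18). With MYCi975 in P493-6, 4 of 20 rose and 1 fell, 25% beside 28.6% of all genes. Without P493-6 control replicate 1, 2 rose and 0 fell, without MYCi975 replicate 2, 2 rose and 1 fell, and without control replicate 3, 4 rose and 2 fell. PYGL rose to 87.5 ± 2.80 CPM (0.44, adjusted p = 6.78e-08) and GAA to 80.4 ± 1.12 CPM (0.20, adjusted p = 0.00468). The difference between the treatments was not tested for these genes, and they share their controls. Of 8 skeletal muscle markers only TTN and RYR1 were listed in P493-6, at a summed 45.9 to 50.4 CPM in controls, 48.6 to 57.7 CPM with MYCi975 and 152 to 161 CPM with tetracycline. With tetracycline TTN went from 35.1 ± 2.58 to 148 ± 4.55 CPM and RYR1 from 12.5 ± 1.24 to 8.77 ± 1.17 CPM. ACTA1, CKM, MYH2, MYH7, MB and TNNT3 were not listed.

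**Figure D4:**
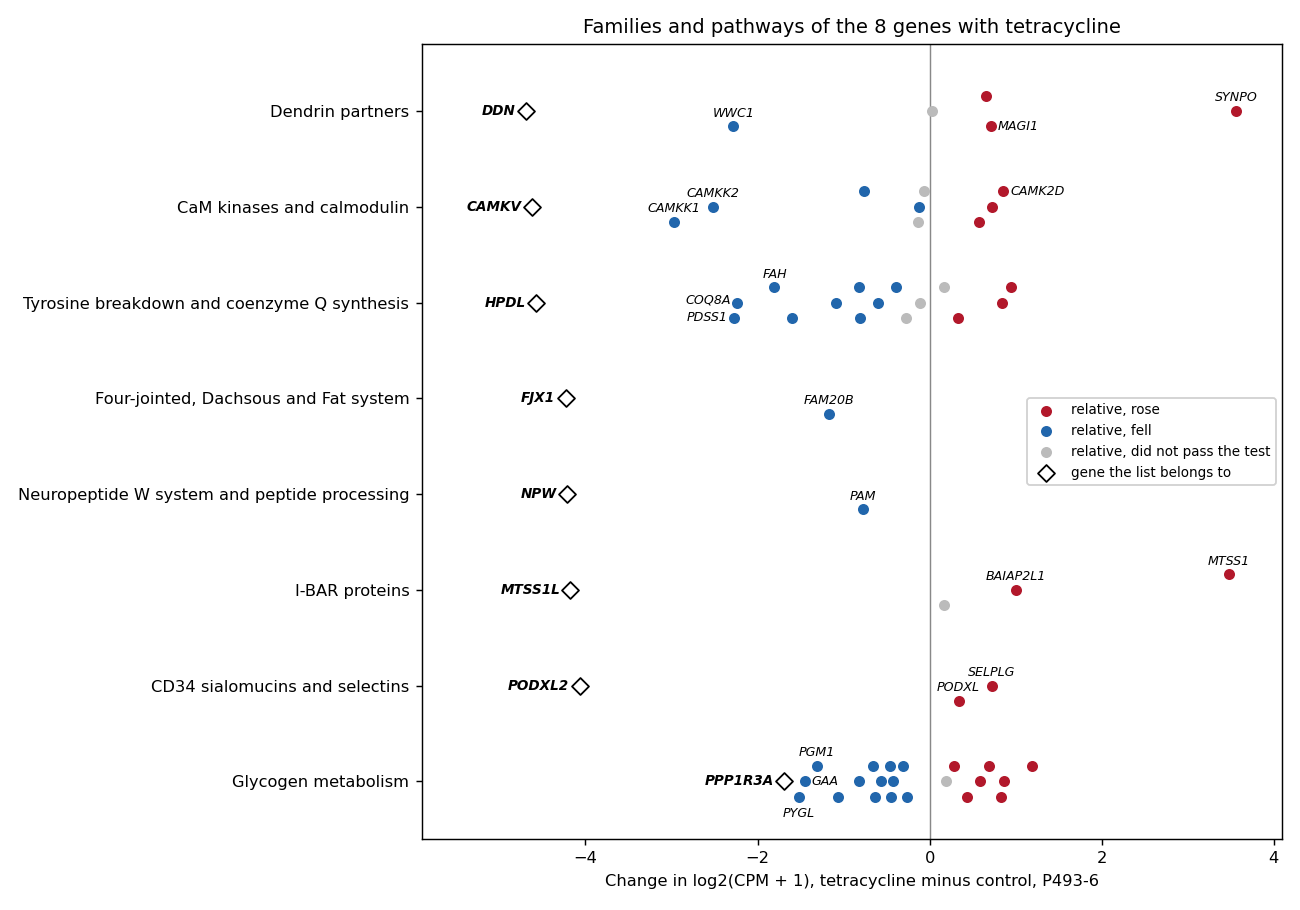
Change in log2(CPM + 1) with tetracycline against control in P493-6 for the listed genes of each family or pathway (dots, coloured by the limma call) and for the gene the list belongs to (diamonds), n = 3 libraries per group. SYNPO at 3.56 and MTSS1 at 3.48 lie opposite DDN at −4.69 and MTSS1L at −4.17, while most coenzyme Q and glycogen genes lie to the left with HPDL and PPP1R3A. Of all 13703 genes, 41.9% were called lower and 36.2% higher.

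Genes whose profile over the 9 P493-6 libraries was most like each of the 8 were found among 9939 genes, by the root mean square difference of log2(CPM + 1) from the control mean. This is a description, since the likeness rests mostly on the fall with tetracycline. MYC and CD3EAP, an RNA polymerase I subunit, were nearest to DDN (differences of 0.271 and 0.365) and to CAMKV (0.304 and 0.390). CD3EAP and ANKRD13B were nearest to FJX1 (0.201 and 0.214), and CD3EAP and RP11-132A1.4 to HPDL (0.414 and 0.422). MEX3A, an RNA-binding protein, and ANKRD13B were nearest to PODXL2 (0.111 and 0.155) and to MTSS1L (0.202 and 0.209). FKBP4, a co-chaperone of Hsp90, and ANKRD13B were nearest to NPW (0.297 and 0.324). For PPP1R3A the nearest were RP11-442N24__B.1 (0.413), at 7.41 CPM in controls, 3.42 with MYCi975 and 2.42 with tetracycline, and CCDC78 (0.442), at 9.14, 5.12 and 1.92 CPM.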

How the data were processed

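RNA of 15 libraries in 5 groups of 3 was compared, with groups taken from the labels. Per the submitters' processing notes the authors used STAR, HTSeq and edgeR on hg38. No version, annotation or option is given in these sources. The authors deposited CPM, and every value tested was a whole number of reads within 0.001 reads (100% of values). Per the file headers, the deposited tables also hold log2 fold changes, a score, p-values and other columns, which were not used. Every listed gene has over 1 CPM in 2 or more of its table's 6 libraries.

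The test was limma 3.58.1 in R 4.3.3 (trend, robust, two-sided) on log2(CPM + 1), within each table, with Benjamini-Hochberg adjustment over all its genes and a threshold of 0.05. The added 1 CPM understates changes of low genes. edgeR 4.0.16 and DESeq2 1.42.0 on recovered reads, TMM scaling, pseudocounts of 0.1 and 0.5, a mean CPM of at least 5, a threshold of 0.01, a replicate block, all 9 P493-6 libraries and leaving out each library were alternatives. Scripts were tested on simulated data.

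The members and the lists of relatives and markers were chosen with earlier results of these data known. A few genes of these lists are not reported here and are left out of their counts. The named genes are the 8 members, MYC, up to 3 called relatives per list with the largest change with tetracycline, the 2 nearest profiles per member and at most 5 steeper falls; FAT1, FAT4, FAM20C, COQ2, COQ5, MEX3A, B4GALT2 and CALM2 were named after their values were seen. Promoters are from RefSeq (GRCh38.p14), and exon lengths from GENCODE 29. The tetracycline changes of the members and the change of PPP1R3A with MYCi975 were used in choosing them and were not tested.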

Additional observations from a re-analysis of the deposited data

Results flagged for a closer look

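The change of FJX1 with MYCi975 differed between the lines by 0.621 on the log2 scale (limma interaction, adjusted p = 6.74e-07), higher in PC3, where all 3 treated libraries lay above the controls. The change of PODXL2 differed by −0.788 (adjusted p = 1.29e-10), with all 3 treated libraries above the controls in P493-6 and all 3 below them in PC3. Over all genes the treated libraries lay wholly above control for 15.2% in P493-6 and 30.2% in PC3. They lay wholly below control for 24.8% in P493-6 and 31.7% in PC3. The dose was 6 µM in P493-6 and 8 µM in PC3, and line and dose cannot be told apart. The P493-6 controls also took part in the choice of the genes, so these differences are not independent of that choice.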

How the results depend on the processing

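In the tetracycline libraries, which took part in the choice, the median log2 change of the 8 genes was −4.22 against control and −4.25 against MYCi975. With a pseudocount of 0.1 these were −5.01 and −4.82, and with 0.5 they were −4.60 and −4.50, as follows from the smaller added value. Leaving out 1 library gave −4.287 to −4.183 and −4.289 to −4.245. The uncalled change of FJX1 with MYCi975 in P493-6 turned positive with TMM scaling (0.0357), edgeR (0.0376) and DESeq2 (0.0338), and ran from −0.0671 to 0.0696 without 1 library. That of NPW ran from −0.0874 to 0.0876. The cause was not tested. The count of genes called with MYCi975 in P493-6 was 3 without any 1 library and 4 with TMM scaling or edgeR, which added MTSS1L. In PC3 it was 3 to 4, with DDN lost without either of 2 libraries, with DESeq2, at a threshold of 0.01 and with a mean CPM of at least 5, where it was not tested. Called differences between the lines stayed at 2, for FJX1 and PODXL2, under each alternative run. Relatives called without 1 library were 47 to 49 with tetracycline, 11 to 14 with MYCi975 in P493-6 and 33 to 39 in PC3.

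The replicate numbers showed no clear pairing of the libraries. Deviations of same-numbered libraries correlated between −0.112 and 0.0559, and in 3 of 9 same-numbered pairs both libraries correlated best with each other. Such weak correlations cannot tell if libraries shared a culture or a day, and the labels do not say. With the replicate number as a block, 3 genes were called with MYCi975 in P493-6, 4 in PC3 and 2 for the difference between the lines, as without it, and relatives called were 49, 13 and 38. Depth limits the lowest values most, since FJX1, HPDL and NPW rest on as few as 6 reads in a tetracycline library.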

Other observations

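Neighbouring genes within 40 kb of the 8 were looked at after their values were seen, as values with no test. Distances are between the gene bounds that the authors gave with the CPM values. No gene that close to FJX1 or PPP1R3A was listed in P493-6. MUTYH, a DNA repair glycosylase 630 bases from HPDL, was at 8.59 ± 1.13 CPM in controls and 8.87 ± 0.936 CPM with tetracycline (n = 3), and the groups overlap. ABTB1, 126 bases from PODXL2, was at 1.70 ± 0.0481 CPM in controls and 12.5 ± 1.19 CPM with tetracycline. ZNF598, a ubiquitin ligase of stalled ribosomes, went from 145.0 ± 4.604 to 51.1 ± 2.66 CPM. It lies 103 bases from the outer bound of NPW, which is upstream of the RefSeq start used for the NPW promoter window. VAC14, 1373 bases from MTSS1L, went from 79.1 ± 7.06 to 45.1 ± 4.07 CPM, and PRKAG1, 2965 bases from DDN, from 16.2 ± 1.79 to 32.2 ± 1.54 CPM. TRAIP, 1414 bases from CAMKV, went from 18.4 to 9.33 CPM. DDN-AS1, which overlaps DDN, is given above. Apart from it, the gene named for each member is its nearest listed neighbour. Of the others within 40 kb, more were wholly lower than wholly higher with tetracycline, and some overlapped. SLC9A3R2 near NPW went from 30.8 to 4.70 CPM and MON1A near CAMKV from 20.5 to 3.76 CPM. TESK2 near HPDL went from 2.42 to 11.3 CPM and ARF3 near DDN from 136 to 173 CPM. Of all 13703 genes, 42.1% lay wholly lower and 36.3% wholly higher than control with tetracycline, so values of both kinds near the 8 are read against that background.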
